A study of Rattus norvegicus with 12 samples.

Results

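Histone genes of the replication-dependent kind were followed in the pubocaudalis, a pelvic floor muscle, of lactating and non-lactating rats after simulated birth injury (SBI). The members were the gene identifiers whose name starts with Hist1h, Hist2h, Hist3h or Hist4h and that held at least 10 counts summed over the 12 libraries. Of 30206 rows in the table, 21 carried such a name and 14 met the minimum, namely 2 H2A-named, 5 H2B, 1 H3 and 6 H4 identifiers and 0 of H1. Every identifier was kept apart even where the name repeats: Hist1h4m names 6 identifiers, and Hist1h2bo and Hist1h3b name 2 each. Rows were placed in a class by their name, and no protein or transcript sequence was used here to check it. Near-identical copies of a histone gene can share reads, so the division of counts among identifiers of a class, and of one symbol above all, is uncertain. Among the 6 libraries of 3 weeks, the value of Hist1h2bq carried decimals, as divided reads give, in 6, that of Hist2h4 in 4 and that of Hist1h4m ENSRNOG00000064025 in 4, whereas every 1-week value was whole.

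The animals were pregnant Sprague-Dawley rats 3 months old, all with SBI by distension of a vaginal balloon late in gestation, and none of the groups compared here was uninjured. Dams of 1wk SBI or 3wk SBI lost their pups after birth and did not lactate, while those of 1wk SBI + Lac or 3wk SBI + Lac kept them. The muscle was taken 1 or 3 weeks after the injury. Each group had 3 libraries, each from the pooled RNA of 2 rats, so every n counts pools. The paper's legend calls the pools technical replicates while the labels name different rats for each, so the p-values measure the spread between pools. Totals per library ran from 10082734 to 75634391 counts, and at 1 week each non-lactating library was deeper than each lactating one. The shallowest libraries were 3wk SBI replicate 1 and 3wk SBI + Lac replicate 3. A count of 0 allows up to 3 counts, which is between 0.036 and 0.33 normalized CPM (counts put on 1 scale for library size by edgeR) depending on the library, for counting error only.

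Histones are the proteins around which DNA is wound: H2A, H2B, H3 and H4 form the core of the nucleosome and H1 binds the DNA between nucleosomes. The replication-dependent genes lie in clusters, lack introns and are transcribed mainly in S phase, when new DNA has to be packed. Most of their mRNAs end in a stem-loop bound by SLBP, made with the U7 small nuclear ribonucleoprotein, and have no poly(A) tail, whereas the replication-independent variants such as H3.3 and H2A.Z give polyadenylated mRNAs throughout the cell cycle. The labels describe the sequenced material as polyadenylated RNA, so the levels below are those of histone RNA that entered such libraries.

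In the RefSeq annotation of the rat build GRCr8, the Hist1 symbols found there lay on chromosome 17. Promoter windows, which run from 250 bases before to 50 bases after the start of a gene, were found for 9 of the 10 member symbols. The windows of both symbols that passed a test below are shown, Hist1h4m (chr17:47393514-47393813, plus strand) and Hist1h2bq (chr17:41869292-41869591, minus strand), with those of Hist1h4b (chr17:47175996-47176295, plus strand) and Hist1h2ao (chr17:47400829-47401128, minus strand), which share a long run of bases with Hist1h4m. In the first 3, capitals mark that run, and in Hist1h2bq they mark the octamer ATTTGCAT and CCAAT on either strand, known elements of H2B promoters, which overlap nowhere in this window.
Hist1h4m: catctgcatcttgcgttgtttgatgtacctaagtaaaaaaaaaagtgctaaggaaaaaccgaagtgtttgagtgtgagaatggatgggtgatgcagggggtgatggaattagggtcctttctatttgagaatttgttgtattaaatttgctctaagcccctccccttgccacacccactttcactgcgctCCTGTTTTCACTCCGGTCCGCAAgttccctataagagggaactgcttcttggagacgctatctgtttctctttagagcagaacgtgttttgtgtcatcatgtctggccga
Hist1h4b: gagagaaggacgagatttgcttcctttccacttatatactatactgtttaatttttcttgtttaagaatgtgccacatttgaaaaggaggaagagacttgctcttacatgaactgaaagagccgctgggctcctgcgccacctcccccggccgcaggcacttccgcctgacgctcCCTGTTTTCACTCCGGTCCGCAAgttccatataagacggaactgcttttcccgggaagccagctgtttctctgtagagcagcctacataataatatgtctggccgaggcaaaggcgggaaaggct
Hist1h2ao: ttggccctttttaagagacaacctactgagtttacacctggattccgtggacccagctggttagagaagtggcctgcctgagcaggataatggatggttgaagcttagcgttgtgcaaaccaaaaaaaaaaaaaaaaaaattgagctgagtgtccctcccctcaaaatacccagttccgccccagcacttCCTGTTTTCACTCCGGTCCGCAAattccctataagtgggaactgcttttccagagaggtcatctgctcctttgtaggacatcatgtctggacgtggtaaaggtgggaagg
Hist1h2bq: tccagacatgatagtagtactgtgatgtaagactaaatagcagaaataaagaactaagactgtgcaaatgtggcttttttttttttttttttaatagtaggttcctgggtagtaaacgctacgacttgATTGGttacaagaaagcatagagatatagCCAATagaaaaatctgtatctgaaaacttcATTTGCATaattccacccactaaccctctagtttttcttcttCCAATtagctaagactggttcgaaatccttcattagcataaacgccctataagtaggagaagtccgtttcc

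The run of 23 bases, CCTGTTTTCACTCCGGTCCGCAA, was taken from these windows as the longest that they share, and it begins 60 bases before the start in Hist1h4m and Hist1h2ao and 75 bases before it in Hist1h4b. On both strands of 33469 promoter windows it was found in these 3 alone, or 0.00896%. Hist1h2ao carries an H2A name, and since its window was among those from which the run was taken, holding the run says nothing about that name. From the first ATGTCT near the start to the end of the window, 23 of 28 bases of Hist1h2ao were those of Hist1h4b, against 17 of 28 shared with Hist1h2af, so the sequence goes against its H2A name, and it is called below by that name only as the table gives it. The octamer was present in 1.78% of all windows and in 2 of 9 member windows, those of Hist1h2bq and Hist1h2af. CCAAT was present in 37.5% of all windows and in 6 of the 9 members, and TATAA in 26.2% and in 9 of 9. These are matches of letters in a window that belongs to a symbol, and the window of Hist1h4m cannot be given to any of its 6 identifiers.

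Counts were spread very unevenly over the members. Hist1h2bq, an H2B gene, took 92.7% of all member counts, Hist2h4, an H4 gene, took 3.68%, the Hist1h4m identifiers took 2.97% and the other members together 0.698%. Only 7 of the 14 members had enough counts to be tested, 2 of H2B, 1 of H3 and 4 of H4, and these 7 held 99.8% of the member counts. Since a filter on counts keeps an identifier that is high in some group, the counts over these 7 describe them and are not support for a direction of the class.

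The summed level of the histone members, most of it Hist1h2bq, was higher with lactation than without it at both times. At 1 week the members summed to between 136 and 145 normalized CPM in the non-lactating and between 172 and 199 in the lactating libraries, a ratio of the means of 1.35. At 3 weeks they summed to between 122 and 143 against between 188 and 223, a ratio of 1.55. The sums did not overlap at either time. The 1-week ratio depends on the scaling: the factors were 1.04 to 1.29 without and 0.944 to 1.05 with lactation, and as a percent of all counts the members took 0.014 to 0.0177% against 0.0181 to 0.0196% at 1 week, a ratio of 1.13, and 0.0129 to 0.0134% against 0.0168 to 0.019% at 3 weeks, a ratio of 1.38. Without Hist1h2bq, the other 13 members summed to 12.5 ± 1.65 against 14.8 ± 0.389 normalized CPM at 1 week (SD), a ratio of 1.18. At 3 weeks they summed to 6.29 ± 1.78 against 12.9 ± 1.55, a ratio of 2.05. These sums did not overlap in normalized CPM. As a percent of all counts they overlapped at 1 week, with 0.00115 to 0.00185% against 0.00141 to 0.00151%. An edgeR fit on library totals with no scaling factor, added after the factors were seen, moved the median of all identifiers to -0.25 at 1 week and -0.2 at 3 weeks and that of the members to 0.2 and 0.82. In edgeR's quasi-likelihood test, 1 of the 7 tested members passed both cutoffs (adjusted p under 0.05 and absolute log2 fold change over 1) at 1 week and 2 of 7 at 3 weeks, all of them Hist1h4m identifiers and all higher in lactating rats. Of all 14599 identifiers tested, 0.089% passed both cutoffs as higher at 1 week and 0.205% at 3 weeks, or 0.253% and 0.74% in either direction. The median log2 fold change of the tested members was 0.45 at 1 week and 1 at 3 weeks, against -0.0038 and -0.019 over all identifiers. The member median at 1 week was -0.25 without the low-count filter, 0.049 with counts added by symbol and 0.06 with at least 10 counts in every library, and at 3 weeks it was 0.33 with that minimum and from 0.71 to 1.7 with a library left out, the extremes being those without 3wk SBI + Lac replicate 1 and 3wk SBI replicate 3. The minimum of 10 counts left only Hist1h2bq and Hist2h4, so its medians are midpoints of 2 identifiers. Unadjusted p-values under 0.05 were found for 18.9% of all identifiers at 1 week and for 21.1% at 3 weeks, against which such counts in the lists below are to be read.

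**Figure D1:**
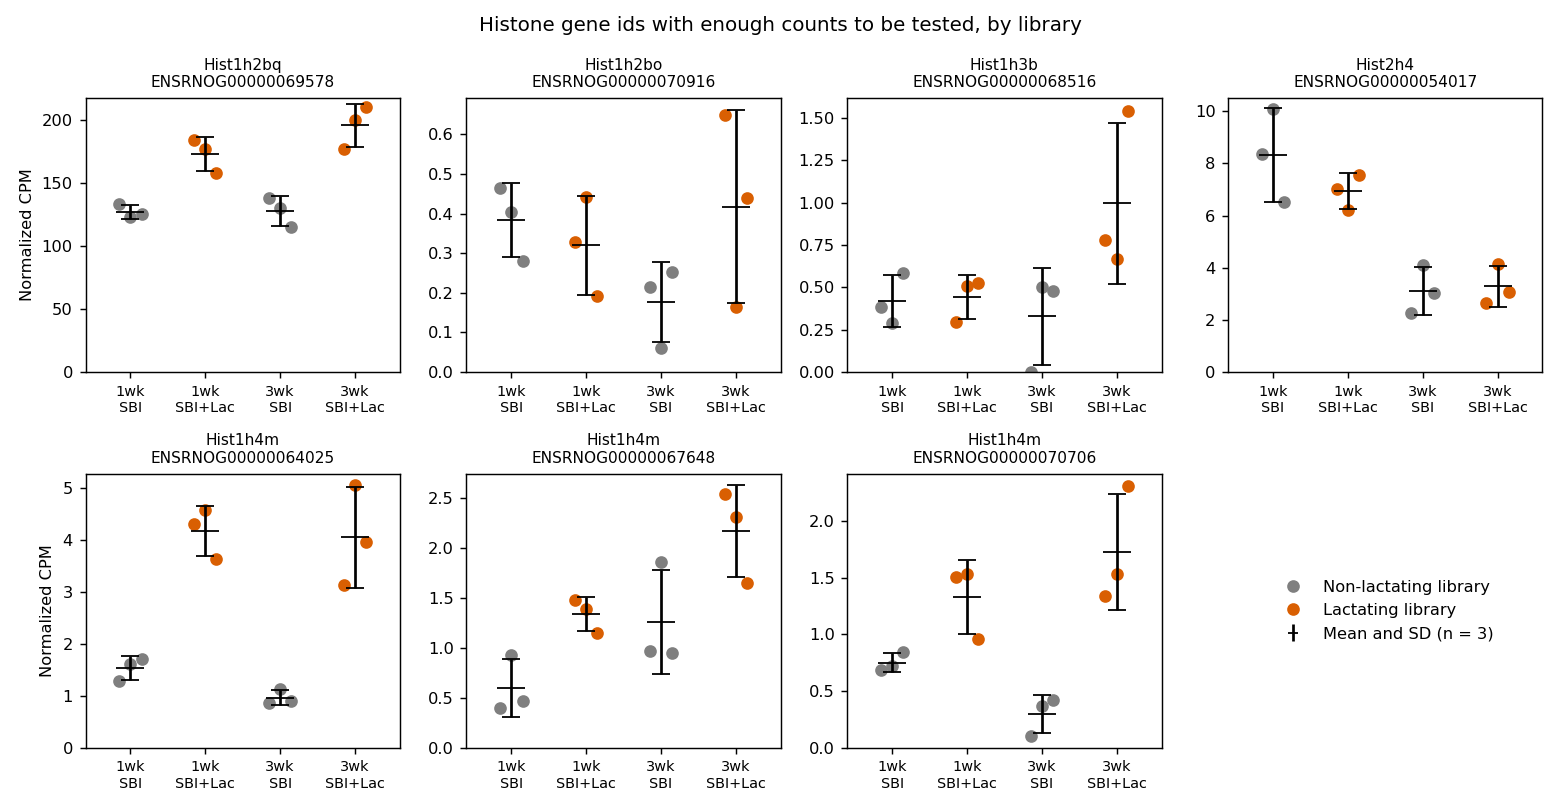
Normalized CPM of the 7 tested histone identifiers in each library, in separate panels with their own linear scales from 0, for the 4 groups; points are pools of 2 rats, and bars give the mean and SD of 3 pools. Hist1h2bq and Hist1h4m ENSRNOG00000064025 were higher in each lactating pool than in each non-lactating pool of the same week, while the pools of Hist2h4 overlapped at both times.

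Among the H2B genes, Hist1h2bq (ENSRNOG00000069578) held the most counts of any member in each library. At 1 week it had 133, 123 and 125 normalized CPM in the non-lactating pools and 184, 177 and 158 in the lactating pools. The pools of 3 weeks had 138, 130 and 115 without and 177, 200 and 210 with lactation. The groups did not overlap at either time, and the non-lactating pools of 1 and 3 weeks covered about the same range. The log2 fold change was 0.45 (standard error 0.11) at 1 week, with an adjusted p of 0.0642 in edgeR, which missed the cutoff. At 3 weeks Hist1h2bq rose by 0.61 on the log2 scale (standard error 0.11, adjusted p = 0.0119, edgeR), a 1.53-fold increase under the fold-change cutoff. On the adjusted p alone 1.35% of all identifiers were higher at 3 weeks, where 3 of the 7 tested members passed, and 0.336% at 1 week, where 1 of 7 did. DESeq2 on all 12 libraries gave Hist1h2bq an adjusted p of 0.00297 at 1 week, and limma-voom gave 0.0411, while edgeR without 1wk SBI replicate 3 gave 0.0491. With counts added by symbol, edgeR gave 0.0638, which missed the cutoff as the main fit did. Over all alternatives the adjusted p at 1 week ran from 0.0015 to 0.249, on both sides of the cutoff. Without the shallowest library of each group at 3 weeks, an alternative chosen after the depths were seen, the adjusted p at 3 weeks was 0.0534 in edgeR at a log2 fold change of 0.63.

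The other tested H2B identifier, Hist1h2bo ENSRNOG00000070916, was near the lower end of what could be counted. It had 0.465, 0.405 and 0.281 normalized CPM in the 1wk SBI pools against 0.328, 0.441 and 0.191 in the 1wk SBI + Lac pools. Its 3-week values were 0.215, 0.0619 and 0.252 without and 0.65, 0.163 and 0.44 with lactation. The groups overlapped at both times, and the log2 fold changes were -0.29 (standard error 0.62) and 1.04 (standard error 0.71), and the edgeR adjusted p was 0.836 and 0.429. These errors leave room for changes of either sign. The other H2B members were too sparse for a test: Hist1h2bg (ENSRNOG00000070362) held 28.4 counts in all with at most 11 in a library, Hist3h2ba (ENSRNOG00000043419) held 34.2 with at most 8, and the second Hist1h2bo identifier (ENSRNOG00000068034) held 26.2. A difference between groups was not detectable for them at this depth.

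The H4 genes held the members that passed. H4 is the most conserved core histone, and several separate genes encode the same protein, which makes its copies hard to tell apart by reads. Hist1h4m ENSRNOG00000064025 had 1.28, 1.62 and 1.71 normalized CPM in the 1wk SBI pools against 4.3, 4.58 and 3.63 in the 1wk SBI + Lac pools. At 3 weeks it had 0.858, 1.13 and 0.902 in the non-lactating and 3.13, 5.06 and 3.96 in the lactating pools. Each lactating pool was above each non-lactating pool of its week. It rose 2.71-fold at 1 week, or 1.44 ± 0.24 on the log2 scale (± standard error; edgeR adjusted p = 0.0235), and 4.26-fold at 3 weeks, or 2.09 ± 0.27 (edgeR adjusted p = 0.00203). The call at 3 weeks held without any of the 6 libraries of that week (edgeR adjusted p from 0.00779 to 0.0197). Leaving out a library of 1 week ended the call there in 4 of 6 fits, those without 1wk SBI replicate 1 (adjusted p = 0.138), 1wk SBI replicate 2 (0.105), 1wk SBI + Lac replicate 1 (0.112) or 1wk SBI + Lac replicate 2 (0.108), although the log2 fold change stayed between 1.32 and 1.53. On library totals with no scaling factor it was 1.19 (edgeR adjusted p = 0.066) at 1 week.

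Hist1h4m ENSRNOG00000070706 followed with fewer counts. The 1wk SBI pools had 0.689, 0.725 and 0.843 normalized CPM, those of 1wk SBI + Lac 1.51, 1.53 and 0.956. The 3wk SBI pools had 0.107, 0.372 and 0.42, those of 3wk SBI + Lac 1.34, 1.53 and 2.31. The pools were apart at both times, and the lowest value, in 3wk SBI replicate 1, rested on 1 count. At 1 week the log2 fold change was 0.82 (standard error 0.39, adjusted p = 0.268, edgeR). The 3-week rise was 4.8-fold, or 2.26 ± 0.45 on the log2 scale (± standard error; edgeR adjusted p = 0.0174). That call sat near the threshold: the edgeR adjusted p was 0.0508, 0.0521 and 0.0507 without 3wk SBI + Lac replicate 1, 2 and 3, 0.0628 with the libraries of 3 weeks alone, and 0.0631 without the 2 shallowest libraries, where the log2 fold change was 1.84.

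The remaining tested copy, Hist1h4m ENSRNOG00000067648, had 0.401, 0.928 and 0.469 normalized CPM in the 1wk SBI pools against 1.48, 1.39 and 1.15 in the 1wk SBI + Lac pools. After 3 weeks there were 0.965, 1.86 and 0.948 in the non-lactating and 2.54, 2.31 and 1.65 in the lactating pools. The groups were apart at 1 week and overlapped at 3 weeks through 3wk SBI replicate 2. Neither log2 fold change passed, with 1.14 (standard error 0.39, adjusted p = 0.137, edgeR) at 1 week and 0.83 (standard error 0.4, adjusted p = 0.25, edgeR) at 3 weeks. The other Hist1h4m identifiers were sparse: ENSRNOG00000070513 held 27 counts over the 12 libraries, and ENSRNOG00000065263 and ENSRNOG00000066473, under the minimum, held 8 and 7. Of the 8 counts of ENSRNOG00000065263, 7 came from 3wk SBI replicate 2, the library in which ENSRNOG00000064025 and ENSRNOG00000067648 also had their highest value of that group.

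Because reads can move between copies of a symbol, the 6 Hist1h4m identifiers were also added together. Their sum was 2.55, 3.29 and 3.23 normalized CPM in the 1wk SBI pools against 7.34, 7.63 and 5.76 in the 1wk SBI + Lac pools. The 3wk SBI sums were 1.93, 3.79 and 2.29, and those of 3wk SBI + Lac 7.16, 8.9 and 7.91. No pool of one condition reached the other at either time. With counts added by symbol before the fit, Hist1h4m rose by 1.19 on the log2 scale at 1 week (standard error 0.22, adjusted p = 0.0291, edgeR) and by 1.59 at 3 weeks (standard error 0.23, adjusted p = 0.00559, edgeR), so the symbol passed both cutoffs at both times.

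Hist2h4 (ENSRNOG00000054017), the H4 gene with the most counts, had 8.36, 10.1 and 6.51 normalized CPM in the 1wk SBI pools against 7.02, 6.2 and 7.57 in the 1wk SBI + Lac pools. Later, at 3 weeks, it had 2.25, 4.09 and 3.03 in the non-lactating and 2.64, 4.15 and 3.08 in the lactating pools. The groups overlapped at both times, and the log2 fold changes were -0.27 (standard error 0.22, adjusted p = 0.532, edgeR) and 0.08 (standard error 0.25, adjusted p = 0.886, edgeR). Hist1h4b (ENSRNOG00000032224), whose promoter holds the run shared with Hist1h4m, had 27 counts in all and was not tested. The H4 members together came to 11.4 ± 1.89 against 13.8 ± 0.487 normalized CPM at 1 week (SD, n = 3 each, with overlap) and to 5.67 ± 1.65 against 11.3 ± 1.71 at 3 weeks (without overlap).

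Within a library, the share of the H4 member counts listed under the 4 Hist1h4m members does not depend on library size. In 1wk SBI it was 23% (95% exact binomial interval 19.9 to 26.3), 24.4% (21.4 to 27.5) and 32.8% (28.3 to 37.5). In 1wk SBI + Lac it was 50.8% (46 to 55.6), 54.8% (49.8 to 59.7) and 43.1% (39 to 47.3). Hist2h4 made up nearly all of the rest, so at 1 week the majority of H4 member counts was that of Hist2h4 in each non-lactating library and in 1wk SBI + Lac replicate 3. These shares leave out H4f3, an H4 gene outside the name rule, which held 122 to 223 counts in the 1-week libraries. With H4f3 counted, Hist2h4 held no majority in 1wk SBI replicate 3 or in 1wk SBI + Lac replicate 3. In 3wk SBI the share was 46.1% (30.1 to 62.8), 45.1% (35.9 to 54.3) and 42.6% (38 to 47.4). In 3wk SBI + Lac it was 72.9% (67.5 to 77.9), 67.8% (64.4 to 71) and 72% (62.1 to 80.5). The lactating libraries were above the non-lactating ones at both times. The intervals cover counting error alone, the 3-week values were rounded for them, and reads of near-identical copies may have been divided differently at 1 and 3 weeks.

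**Figure D2:**
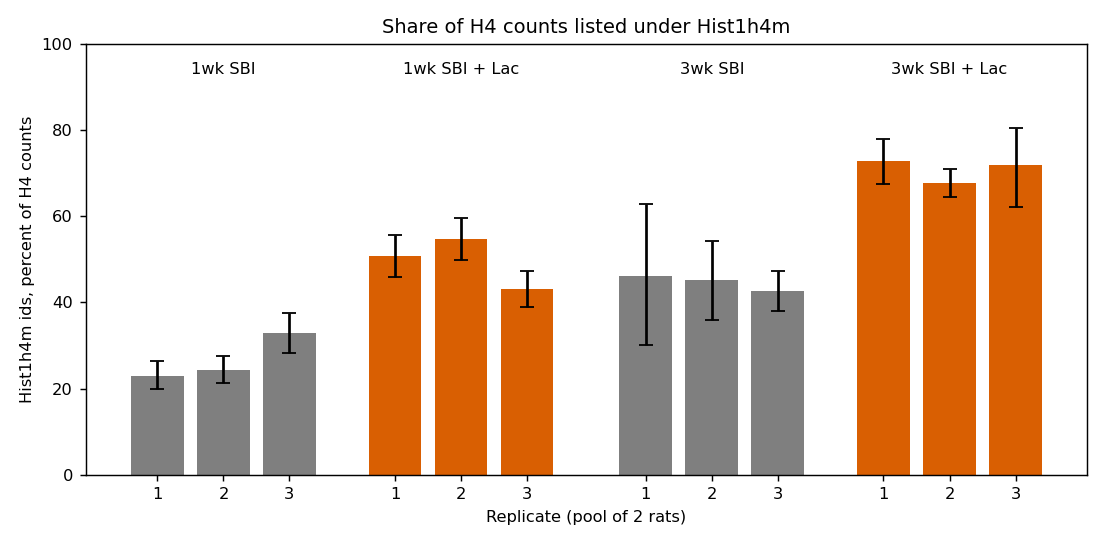
Percent of the H4 member counts listed under Hist1h4m identifiers in each of the 12 libraries, with exact 95% binomial intervals; the bars start at 0. The lactating libraries lay between 43.1% and 54.8% at 1 week and between 67.8% and 72.9% at 3 weeks, above the non-lactating libraries of the same week.

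For H3, which carries many of the marks that regulate chromatin, the member was Hist1h3b ENSRNOG00000068516. It had 0.385, 0.287 and 0.586 normalized CPM in the 1wk SBI pools against 0.295, 0.509 and 0.526 in the 1wk SBI + Lac pools. At 3 weeks it had 0, 0.503 and 0.48 in the non-lactating and 0.781, 0.667 and 1.54 in the lactating pools. The value of 0, in 3wk SBI replicate 1, allows up to 0.322 normalized CPM. The groups overlapped at 1 week and were apart at 3 weeks, and neither log2 fold change passed, at 0.1 ± 0.62 and 1.3 ± 0.66 (± standard error; edgeR adjusted p of 0.952 and 0.273). The second Hist1h3b identifier (ENSRNOG00000068614) held 3 counts and Hist2h3c2 (ENSRNOG00000063016) 7.52, both under the minimum.

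The H2A-named members, Hist1h2ao (ENSRNOG00000063552) and Hist1h2af (ENSRNOG00000022146), held 15 and 11 counts over the 12 libraries, with at most 5 in any library. Hist1h2ao had 0, 2 and 4 counts in the 1-week pools without and 1, 1 and 0 with lactation, and at 3 weeks 0, 0 and 1 without and 1, 5 and 0 with it. Levels this close to 0 allow no comparison for these members. Hist1h2ac (6 counts) and Hist1h2ail1 (0 counts) fell under the minimum, as did Hist1h2bc (5 counts), which is H2B by its name.

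The lactating pools lay above the non-lactating pools without overlap for 4 of the 7 tested members at 1 week (Hist1h2bq and 3 Hist1h4m copies) and for 4 of 7 at 3 weeks (Hist1h2bq, Hist1h3b, Hist1h4m ENSRNOG00000064025 and Hist1h4m ENSRNOG00000070706). Over all identifiers tested, 14.3% were so placed at 1 week and 11.9% at 3 weeks.

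**Figure D3:**
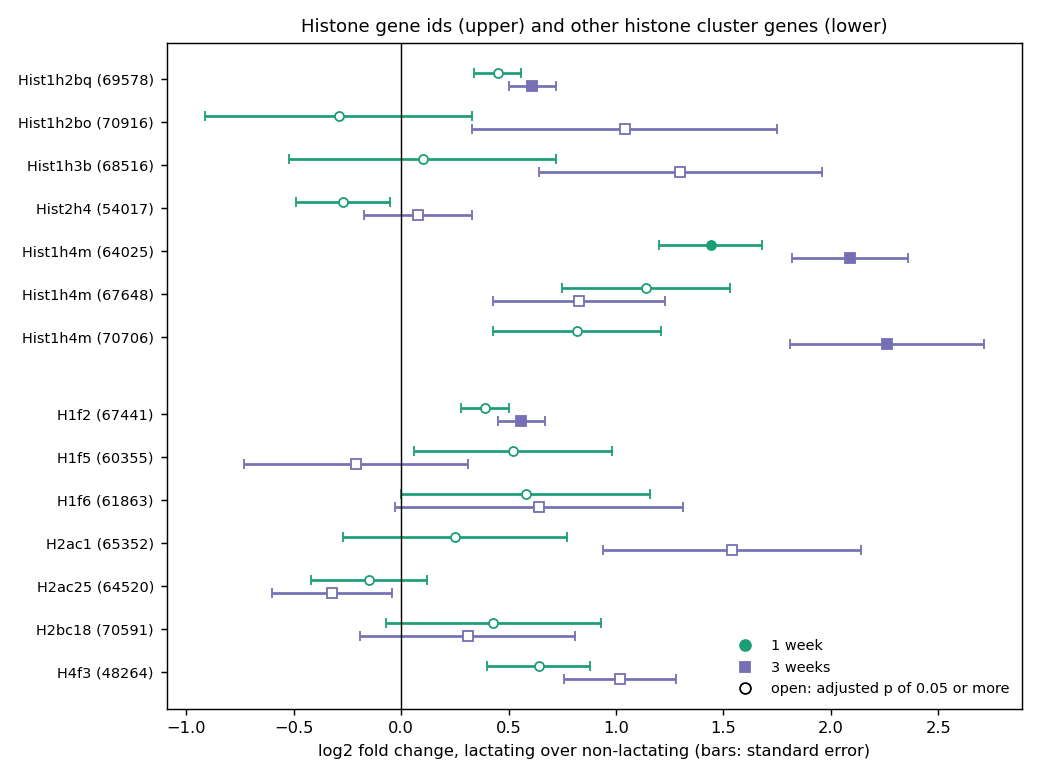
Log2 fold change, lactating over non-lactating, with its standard error from the edgeR fit for the 7 tested histone members and for 7 histone cluster genes that carry other symbols, labelled with the last 5 digits of the identifier; circles are 1 week, squares 3 weeks, and filled symbols have an adjusted p under 0.05. Filled symbols are Hist1h4m ENSRNOG00000064025 at both times and Hist1h2bq, Hist1h4m ENSRNOG00000070706 and H1f2 at 3 weeks, all to the right of 0.

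The lactation effects at 3 weeks and at 1 week were compared by an interaction in the same fit. None of the 7 members passed in edgeR, DESeq2 or limma-voom, against 0.00685% of all identifiers in edgeR, and 1 had an unadjusted p under 0.05, Hist1h4m ENSRNOG00000070706, as did 4.42% of all identifiers. Its effect was larger at 3 weeks by 1.45 on the log2 scale (standard error 0.59, adjusted p = 0.999, edgeR). For Hist1h4m ENSRNOG00000064025 the difference was 0.65 (standard error 0.36) and for Hist1h2bq 0.17 (standard error 0.15), each with an adjusted p of 0.999 in edgeR. The values of the 2 times were not counted in the same way, so a difference between levels at 3 weeks and 1 week was not tested and cannot be told apart from the counting. Side by side, Hist2h4 had means of 8.33 ± 1.8 and 6.93 ± 0.688 normalized CPM at 1 week and of 3.12 ± 0.921 and 3.29 ± 0.776 at 3 weeks (SD, n = 3 each), whereas Hist1h2bq had 127 ± 5.42 and 173 ± 13.5 against 128 ± 11.5 and 196 ± 16.9.

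Some histone genes of the same clusters are named in the table by newer symbols and so fell outside the name rule. This list of 16 identifiers was written after the symbols of the table were seen, and those named from it were chosen after their values were seen. H1f2 (ENSRNOG00000067441), which encodes a linker histone, had 111, 127 and 103 normalized CPM in the 1wk SBI pools against 158, 156 and 135 in the 1wk SBI + Lac pools. At 3 weeks it had 120, 115 and 109 in the non-lactating and 185, 154 and 166 in the lactating pools. In normalized CPM the groups were apart at both times, as for Hist1h2bq. On library totals with no scaling factor the 1-week groups of H1f2 overlapped. The summed list, most of it H1f2, took 0.0119 to 0.0176% of all counts without and 0.0155 to 0.0166% with lactation at 1 week. Its log2 fold change was 0.39 (standard error 0.11, adjusted p = 0.0932, edgeR) at 1 week, and at 3 weeks H1f2 rose by 0.56 (standard error 0.11, adjusted p = 0.0207, edgeR). H4f3, a further H4 gene, had log2 fold changes of 0.64 (standard error 0.24, adjusted p = 0.17) and 1.02 (standard error 0.26, adjusted p = 0.0502). Of the 7 that were tested, 0 passed both cutoffs in edgeR at either time, 2 had an unadjusted p under 0.05 at 1 week and 3 at 3 weeks, all higher (18.9% and 21.1% over all identifiers), and the medians were 0.43 and 0.56. The H2A genes among them had log2 fold changes of -0.15 and -0.32 (H2ac25 ENSRNOG00000064520, with overlap at both times) and of 0.25 and 1.54 (H2ac1, adjusted p = 0.832 and 0.157, edgeR, apart and higher with lactation at 3 weeks).

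The replication-independent histone genes, from which histone variants are made outside S phase, had medians near 0. Of 11 tested, 0 passed at either time in edgeR, and the median log2 fold change was 0.072 at 1 week and -0.0078 at 3 weeks. Unadjusted p-values under 0.05 were found for 2 at 1 week (1 higher and 1 lower) and for 4 at 3 weeks (all higher), against 18.9% and 21.1% of all identifiers. H2az2, which encodes a variant of H2A, had 24.4 ± 0.935 against 28.6 ± 1.1 normalized CPM at 1 week (SD, n = 3 each) and a log2 fold change of 0.23 (adjusted p = 0.181, edgeR), and of 0.3 (adjusted p = 0.0911, edgeR) at 3 weeks. For H2az1 it was 0.37 at 3 weeks (standard error 0.1, adjusted p = 0.0676, edgeR). Cenpa, the H3 variant of centromeres, was at under 1 normalized CPM and had a log2 fold change of -1.93 at 1 week (standard error 0.9, adjusted p = 0.264, edgeR), with -1.69 at 3 weeks. The sum of the list was 515 ± 5.94 against 526 ± 3.27 normalized CPM at 1 week and 543 ± 4.88 against 586 ± 18.4 at 3 weeks. In normalized CPM this sum, like that of the members, was higher with lactation without overlap at both times, with smaller ratios of 1.02 and 1.08. That separation depends on the scaling. As a percent of all counts, the list took 0.0527 to 0.0664% without and 0.0497 to 0.055% with lactation at 1 week. At 3 weeks it took 0.0501 to 0.0594% against 0.0506 to 0.0514%. These percents overlapped at both times, whereas those of the members did not.

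Genes that make and trim histone mRNA were counted next. Of 19 tested, 0 passed both cutoffs in edgeR at either time, the medians were -0.015 and 0.046, and 4 had an unadjusted p under 0.05 at 1 week (2 higher and 2 lower) and 3 at 3 weeks (2 higher and 1 lower), close to the share over all identifiers. Sympk, a scaffold of the complex that cleaves mRNA 3′ ends, had 33.4 ± 3.37 against 51 ± 3.39 normalized CPM at 3 weeks (SD, n = 3 each) and rose by 0.62 on the log2 scale (standard error 0.12, adjusted p = 0.018, edgeR), under the fold-change cutoff. Cstf2, a subunit of the cleavage stimulation factor, had log2 fold changes of -0.52 at 1 week (standard error 0.15, adjusted p = 0.0986, edgeR) and -0.57 at 3 weeks (standard error 0.16, adjusted p = 0.0712, edgeR). Coil, which encodes the coilin of Cajal bodies, had 0.47 at 1 week (standard error 0.16, adjusted p = 0.13, edgeR). Among 16 histone chaperones, which carry histones to and from DNA, 0 passed in edgeR at either time, with 4 and 3 at an unadjusted p under 0.05, again near the share over all identifiers, and medians of -0.11 and -0.045. The smallest p-values belonged to Rbbp4 (log2 fold change -0.38, adjusted p = 0.115, edgeR) and Asf1b (-1.48, adjusted p = 0.234) at 1 week and to Asf1a (0.41, adjusted p = 0.0761) and Atrx (-0.2, adjusted p = 0.197) at 3 weeks.

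Genes listed for DNA replication and S phase, the phase in which these histone genes are mainly used, had lower fitted values in lactating rats for most identifiers, none of which passed the test. The list also holds genes of mitosis and cell division, such as Cdk1, Ccnb1, Birc5 and Mki67. Its counts and medians are therefore not those of S phase alone. At 1 week 27 of 35 identifiers had a lower and 8 a higher value in lactating rats, 11 had an unadjusted p under 0.05 and all 11 were lower, and 0 passed both cutoffs in edgeR. At 3 weeks 22 were lower and 13 higher, again with 11 at an unadjusted p under 0.05, all lower, and 0 past the cutoffs. Over all identifiers 18.9% and 21.1% had such a p in either direction. The medians were -0.48 and -0.21. Ccne2, a cyclin of the entry into S phase, had 2.87 ± 0.601 against 1.17 ± 0.276 normalized CPM at 1 week (SD, n = 3 each) and a log2 difference of -1.29 ± 0.29 (± standard error; edgeR adjusted p = 0.0546), whereas at 3 weeks it had 1.88 ± 0.518 against 2.32 ± 0.391 and a log2 difference of 0.38. The difference between its effects was 1.67 (standard error 0.42, adjusted p = 0.727, edgeR). For Cdk1, the kinase of mitotic entry, the log2 fold change at 1 week was -1.68 (standard error 0.53, adjusted p = 0.114, edgeR). At 3 weeks the smallest p-values were those of Cdc45 ENSRNOG00000050071 (log2 fold change -0.69, adjusted p = 0.0676, edgeR) and Mcm3 (-1.29, adjusted p = 0.0863, edgeR), parts of the replicative helicase. The other Cdc45 identifier, ENSRNOG00000070046, had a log2 fold change of 0.13. The list summed to 209 ± 28.5 against 180 ± 5.06 normalized CPM at 1 week (without overlap) and to 183 ± 11.3 against 177 ± 9.82 at 3 weeks (with overlap).

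**Figure D4:**
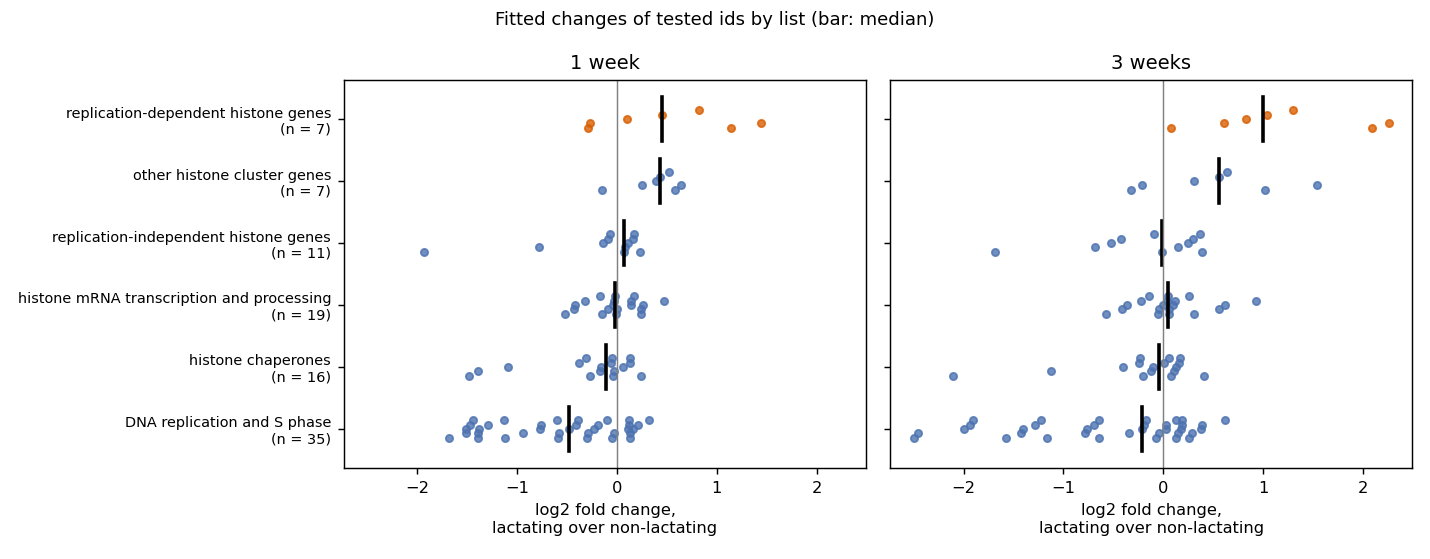
Fitted log2 fold changes, lactating over non-lactating, of the tested identifiers of each gene list at 1 and 3 weeks; points are identifiers and bars list medians. The medians were 0.45 and 1 for the replication-dependent histone genes and -0.48 and -0.21 for the list of DNA replication and S phase, which also holds genes of mitosis. Several replication-dependent points are copies of Hist1h4m, which can share reads, and the median of that list at 1 week depended on the processing.

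Other RNA in the libraries also differed between the groups. Since each library is a whole muscle, fewer cells of a type and less RNA per cell cannot be told apart. The summed level of 295 identifiers of RNAs without a poly(A) tail, of which 1 had enough counts for a test, was 2.06 to 2.6 normalized CPM in 1wk SBI against 0.885 to 1.36 in 1wk SBI + Lac and 1.61 to 1.8 against 0.946 to 1.52 at 3 weeks. This sum was lower in lactating rats at both times. It rested on few counts at 3 weeks, with 15 in 3wk SBI replicate 1 and 10.4 in 3wk SBI + Lac replicate 3. The 13 mitochondrially encoded genes overlapped at both times. The 8 skeletal muscle markers found summed to between 85100 and 134000 normalized CPM in 1wk SBI and between 131000 and 155000 in 1wk SBI + Lac, with overlap, and 122000 to 167000 against 178000 to 200000 at 3 weeks. The 12 leukocyte markers summed to 161 to 191 against 93.6 to 145 at 1 week and to 114 to 247 against 91.1 to 129 at 3 weeks, with overlap at 3 weeks, and 10 of 10 tested were lower in lactating rats at both times. The 6 erythroid markers summed to 355 to 637 against 759 to 1010 at 1 week and overlapped at 3 weeks. The 5 milk genes were at 0 in each 1wk SBI library and between 0.557 and 2.8 in 1wk SBI + Lac, and between 0 and 0.012 against 0.33 and 36.8 at 3 weeks. The part of these differences in the histone values was not tested.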

How the data were processed

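RNA of the rat pubocaudalis was sequenced from 4 groups of 3 pools of 2 rats, with a stranded mRNA kit. For the 1-week samples the authors deposited whole counts per gene, not normalized; the 3-week columns the authors deposited hold decimals and were taken as estimated counts, rounded here for count tests. The submitters' processing notes name Salmon; its role and version, as well as genome build and annotation, are not given in the sources used here. Counts were analysed with edgeR 4.0.16 in R 4.3.3 (TMM scaling, filterByExpr, robust quasi-likelihood fit over 12 libraries), with Benjamini-Hochberg adjustment over all 14599 identifiers tested. Standard errors are the absolute log2 fold change over the square root of F. DESeq2 1.42.0 and limma 3.58.1 (voom) were alternatives, with other scaling, filters, libraries and counting by symbol. The design had assumed whole counts throughout. Within groups no library was a copy of another (pairwise chi-square over degrees of freedom, 22.1 to 100). The fit was tested on simulated data.

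Named members were those past both cutoffs, those sharing their symbol, and the 3 highest identifiers of each class by mean level; of the other lists, identifiers past both cutoffs and the 2 smallest p-values at each time were named. Members and lists were chosen with earlier results of these data known. The other histone cluster genes, H1f10, the promoter motifs, the fit on library totals and the comparison of bases after the start were added after the data were seen. The listed symbols Hba-a2, Mif4gd, Rn7sk, Rmrp, Terc, Rny1, Rny3 and Myh1 matched no row used here. Promoter sequences are those of RefSeq (GRCr8), matched by symbol; Hist2h4 had none in the table used.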

Additional observations from a re-analysis of the deposited data

How the results depend on the processing

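The number of tested histone members past both cutoffs at 1 week, 1, and at 3 weeks, 2, was the same with RLE scaling, without the low-count filter, with DESeq2 and with limma-voom. A minimum of 10 counts in every library left only Hist1h2bq and Hist2h4 to test, with no Hist1h4m identifier. It gave 0 at both times, and medians, here midpoints of these 2, of 0.06 at 1 week and 0.33 at 3 weeks. Without the low-count filter the median at 1 week was -0.25, as sparse members entered it. Counts added by symbol gave 1 at 3 weeks, since the copies became 1 gene, and a median of 0.049 at 1 week. The count at 3 weeks was 1 in edgeR with the 6 libraries compared and 1 without the 2 shallowest libraries, an alternative chosen after seeing the depths. DESeq2 on the 6 libraries compared gave a median of 1.2 at 3 weeks. With each library left out, the count ran from 0 to 1 at 1 week and from 1 to 2 at 3 weeks, and the median at 3 weeks from 0.71 to 1.7. On library totals with no scaling factor, added after the factors were seen, 0 members passed at 1 week and 2 at 3 weeks, the medians were 0.2 and 0.82, the log2 ratios of the summed levels were 0.18 and 0.466 against 0.43 and 0.636 with scaling, and the values of Hist1h3b at 1 week and Hist2h4 at 3 weeks were -0.11 and -0.11. On the adjusted p alone the counts were 1 and 3. Over all alternatives the adjusted p ran from 1.1e-06 to 0.138 for Hist1h4m ENSRNOG00000064025 and from 0.0015 to 0.249 for Hist1h2bq at 1 week, and from 0.000204 to 0.0631 for Hist1h4m ENSRNOG00000070706 and from 4.33e-06 to 0.0534 for Hist1h2bq at 3 weeks.

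Uncalled values that turned sign when a library was left out were those of Hist1h3b at 1 week (from -0.11 to 0.4), Hist2h4 at 3 weeks (from -0.17 to 0.29) and the difference between the effects for Hist1h4m ENSRNOG00000067648 (from -0.79 to 0.07); the cause was not tested. Same-numbered pools did not deviate together (correlations from -0.16 to -0.1 at 1 week and from -0.23 to -0.05 at 3 weeks), so the numbers were not read as pairs. With the replicate number as a block, 1 and 2 members passed at 1 and 3 weeks, with medians of 0.45 and 0.9. Depth limits the members under 1 normalized CPM most, above all in 3wk SBI replicate 1 and 3wk SBI + Lac replicate 3.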
